A study of Mus musculus with 10 samples.

Results

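Neural stem cell cultures from 4 embryos of litter 1 were set against cultures from 4 embryos of litter 3, over autosomal genes and with genotype fitted beside litter. These are 8 of the 10 libraries of the study, chosen by the litter number in the sample labels. The study grew adherent neural stem cells from the cortex of individual mouse embryos at embryonic day 14.5 and sequenced their polyadenylated RNA, to compare embryos heterozygous for the E147A mutation of SMCHD1 with +/+ embryos. SMCHD1 acts on chromatin and helps to keep the inactive X chromosome and some autosomal gene clusters silent. Litter 1 gave 3 E147A/+ libraries (1 female, 2 male) and 1 male +/+ library. Litter 3 gave 1 male E147A/+ library and 3 +/+ libraries (2 female, 1 male). Every embryo in both litters had a Castaneus father and a 129/C57 F1 mother. The E147A allele also carried a GFP tag, the +/+ allele did not, and females of either genotype were heterozygous for an Xist deletion allele (XistdeltaA). Cells grew on laminin with EGF and basic FGF, each at 20 ng/mL. Each group is 1 litter, so litter cannot be told apart from anything its embryos shared, such as dissection, culture or segregating maternal alleles, and the p-values measure the spread between embryos within these 2 litters.

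Cells sense oxygen through prolyl hydroxylases of the EGLN family, which in the presence of oxygen mark the alpha subunits of the hypoxia-inducible factors (HIF) for degradation. When oxygen is short, stabilised HIF binds a short core motif near its targets and raises glucose uptake, glycolysis, lactate export, angiogenic signalling and mitophagy. Neural stem cells of the embryonic cortex lie in tissue of low oxygen and rely strongly on glycolysis. Immediate early genes, such as Fos, Junb and Egr1, encode transcription factors that follow growth factor and stress signals within minutes.

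The table held 52632 genes, of which 47913 are autosomal. After the filter on low counts, 16214 autosomal genes were tested. Total counts per library were 20648916 to 43377699 and did not separate the litters (exact two-sided permutation test over 70 splits, p = 0.943, where the smallest possible is 0.0286). Mitochondrial transcripts made up 1.80% ± 0.187 (SD, n = 4) of counts in litter 1 and 2.27% ± 0.452 (SD, n = 4) in litter 3 (exact permutation p = 0.114). Markers of neural stem cells were high in all 8 libraries: Sox2 at 179 to 239 CPM (counts scaled to a common library total after TMM normalisation), Nes at 547 to 1127 and Vim at 1837 to 3950. The litter 1 libraries resembled each other closely, with a Pearson r of log2 CPM across genes of 0.979 to 0.984, and the litter 3 libraries less so, with 0.930 to 0.976. Between litters r was 0.941 to 0.970. The SD of log2 CPM was larger in litter 3 than in litter 1 for 13299 genes (82.0%), with medians of 0.364 and 0.178. Values given one by one follow the order female E147A/+, male E147A/+, male E147A/+ and male +/+ for litter 1, and female +/+, female +/+, male E147A/+ and male +/+ for litter 3, unless the genotype is named. The male E147A/+ library of litter 3 stood apart from the rest on the second principal component, at -92.6 against -31.5 to 28.6.

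Litter 1 and litter 3 differed at 1020 autosomal genes (6.29% of those tested, edgeR's quasi-likelihood test, Benjamini-Hochberg adjusted p of at most 0.05), 619 higher in litter 1 (3.82%) and 401 lower (2.47%). At an unadjusted p under 0.05 it was 25% of genes, and by adjusted p 15.4% were called with DESeq2 and 2.97% with limma-voom. The genes with the largest differences were mostly up: 408 called genes (2.52%) were at least a log2 fold change of 1 higher in litter 1 and 144 (0.888%) at least that much lower. Of the called genes, 937 did not overlap between the 4 and 4 libraries, against 3464 (21.4%) of all genes tested that did not overlap. All 1020 had the same sign within E147A/+ (3 libraries against 1) as within +/+ (1 against 3), a property that calling them on all 8 libraries favours. Over all genes tested the signs matched for 10050 (62.0%). A litter by genotype interaction was called for 0 genes by edgeR (1644, or 10.1%, at an unadjusted p under 0.05), 0 by limma-voom and 70 by DESeq2. The number called was 526 with a sex term, 0 in males only and 0 with a replicate block by title number. The last 2 of these fits leave fewer degrees of freedom than the main fit, so a count of 0 there does not show an absent difference. The number called also rested on single libraries. It was 22 without the male E147A/+ library of litter 3, of which 21 were among the 1020, and 364, 297, 217 and 635 without litter 1 replicates 1, 2, 3 and 4 in turn (female, male and male E147A/+, and male +/+).

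Many genes of the hypoxia response and glycolysis were higher in litter 1, and the list had the largest share of called members of all lists examined. All 32 listed genes were tested, 18 were called higher in litter 1 (56.2%, against 3.82% of all autosomal genes) and 0 lower. The median log2 fold change was 1.17, against -0.000204 over all autosomal genes. In 31 of the 32 the 4 litter 1 libraries all lay above the 4 litter 3 libraries, which was so for 11.5% of all genes. The exception was Hk1, the constitutive hexokinase, with a log2 fold change of 0.00046 and overlapping libraries. The summed level of the 32 genes was 13249 to 14848 CPM in litter 1 and 5391 to 8550 CPM in litter 3. The direction was the same within each genotype, with a median log2 fold change of 0.85 within E147A/+ (31 of 32 positive) and 1.36 within +/+ (32 of 32 positive). Without the male E147A/+ library of litter 3 the number called was 3 and the median 1.35. Without the male +/+ library of litter 1 they were 7 and 0.86. In males only and with the replicate block by title number, 0 were called, with medians of 1.27 and 0.84.

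**Figure D1:**
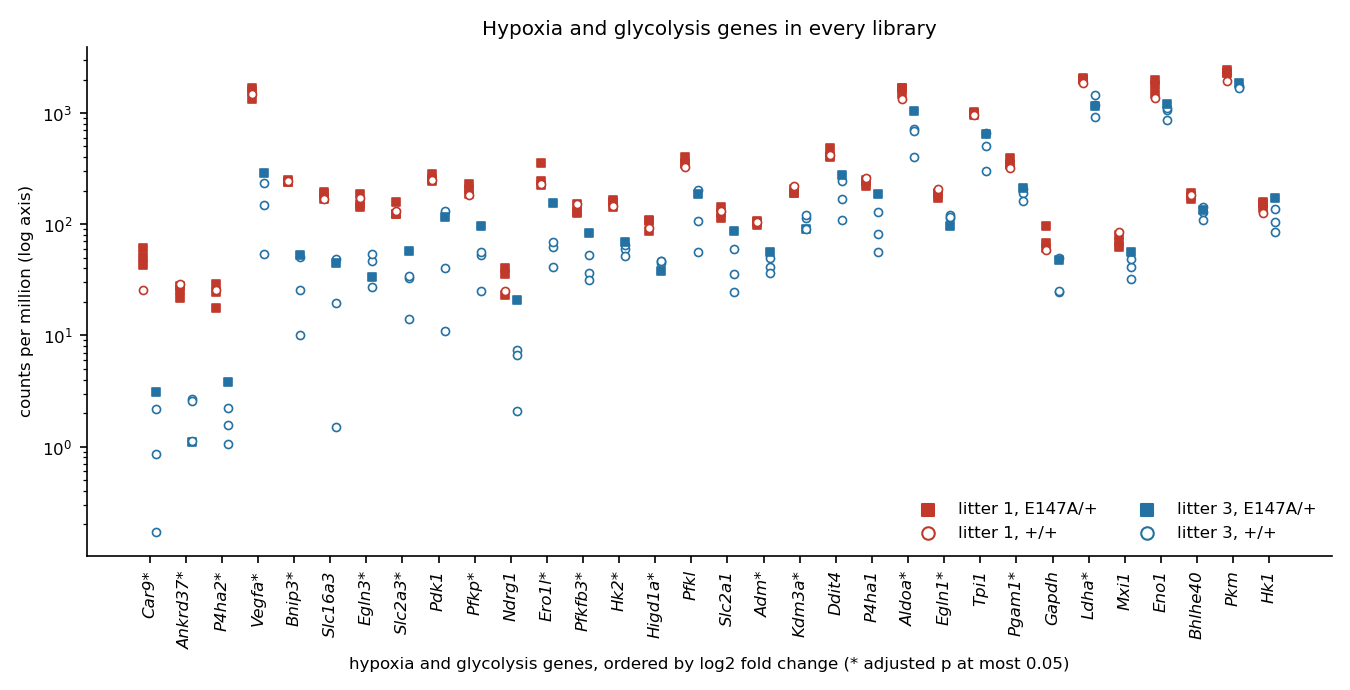
CPM (log axis) of the 32 hypoxia and glycolysis genes in each of the 8 libraries, ordered from the highest to the lowest log2 fold change; red points are litter 1, blue points litter 3, filled squares E147A/+ and open circles +/+, and an asterisk marks an adjusted p of at most 0.05. In 31 genes every red point lies above every blue point, and Hk1 at the right is the exception.

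Carbonic anhydrase 9, adrenomedullin and vascular endothelial growth factor A are the secreted and surface proteins of the list, and all 3 were called. Car9 (ENSMUSG00000028463, GRCm38 chromosome 4, 43506966 to 43513729), which sets pH at the cell surface, was at 50.3, 43.2 and 61.6 CPM in the E147A/+ libraries of litter 1 and 25.6 CPM in its +/+ library. In litter 3 it was at 0.862, 2.16 and 0.169 CPM in the +/+ libraries and 3.10 CPM in the E147A/+ library, close to undetected in the male +/+ culture. The log2 fold change was 4.30 (SE 0.562, adjusted p 0.00834). Vegfa, the main growth signal for blood vessels, was at 1578, 1324 and 1679 CPM in the E147A/+ and 1486 CPM in the +/+ library of litter 1. Its level was 149, 235 and 53.6 CPM in the +/+ and 289 CPM in the E147A/+ library of litter 3. Every litter 1 library was above every litter 3 library, and the difference was 2.87 on the log2 scale (SE 0.439, adjusted p 0.0130). Adm, a secreted vasodilator peptide, was at 97.4 to 108 CPM in litter 1 and 36.7 to 55.8 CPM in litter 3 (log2 fold change 1.10).

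The oxygen sensors on the list, Egln1 and Egln3, which are HIF targets as well as its regulators, were both higher in litter 1. Egln3 was at 144, 152, 187 and 171 CPM in litter 1 and at 46.8, 54.3, 33.3 and 27.0 CPM in litter 3, with no overlap (log2 fold change 2.14, SE 0.244, adjusted p 0.00575). Egln1 was at 173 to 206 CPM against 96.3 to 121 CPM (log2 fold change 0.88, SE 0.0986, adjusted p 0.00571). Here the E147A/+ culture of litter 3 was low among its littermates for Egln1, at 96.3 CPM, and not high as for Vegfa. The messages of the HIF alpha subunits, which fall outside the naming rule and were looked up after their values were seen, went in opposite directions. Hif1a was lower in litter 1, at 113 to 131 CPM against 184 to 275 CPM (log2 fold change -0.98, adjusted p 0.0062). Epas1, which encodes another alpha subunit, was higher, at 15.2 to 24.1 CPM against 5.71 to 10.7 CPM (log2 fold change 1.07, adjusted p 0.0224).

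Regulators and enzymes outside metabolism ranged from a log2 fold change of 0.47 to 4.10. Ankrd37 (ENSMUSG00000050914, chromosome 8, 45996902 to 46005707), an ankyrin repeat protein known as a HIF target, was at 25.8, 21.6, 27.9 and 28.8 CPM in litter 1 and at 2.68, 2.55, 1.10 and 1.12 CPM in litter 3. The lowest litter 1 library was far above the highest of litter 3, and the log2 fold change was 4.10 (SE 0.346, adjusted p 0.00269). P4ha2, a collagen prolyl hydroxylase subunit, was at 29.2, 17.5, 24.7 and 25.6 CPM against 2.20, 1.57, 3.77 and 1.05 CPM (log2 fold change 3.33, SE 0.357, adjusted p 0.00548). Ero1l, which forms disulfide bonds in the endoplasmic reticulum, had a log2 fold change of 1.41 and the histone demethylase gene Kdm3a one of 1.07, both called. P4ha1, Bhlhe40, Mxi1, Ddit4 and Ndrg1 were not called, with log2 fold changes of 0.94, 0.47, 0.70, 0.95 and 1.43. In all 5 the litter 1 libraries lay above the litter 3 libraries, which was so for 11.5% of all genes.

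The core of the HIF binding motif was looked for in the 250 bases before the RefSeq gene start, since members of the list moved together. The motif was ACGTG or GCGTG on either strand (CACGT or CACGC when read on the other strand). A match inside CACGTG is also an E-box, and matches on opposite strands may overlap. Of the 18 called members, 16 had a promoter in the RefSeq table (GRCm38.p6), and 14 of these held at least 1 match (87.5%). Among all 29 listed members with a promoter the share was 75.9%, and among 10956 autosomal tested genes with a promoter it was 56.8%. For the genes called higher in litter 1 as a whole it was 62.8%, and for those called lower 62.5%. The list was made of known genes of the hypoxia response and glycolysis, so its share may come from how it was drawn up. A match is a run of letters and not a measured binding site, and windows without one, such as those of Vegfa and Aldoa, say only that the letters are absent there. The windows of the 3 members with the steepest differences follow, 5′ to 3′ on the strand of the gene, ending at the base before the gene start, with motif matches in capitals.
Car9, chr4:43506776-43507025, plus strand: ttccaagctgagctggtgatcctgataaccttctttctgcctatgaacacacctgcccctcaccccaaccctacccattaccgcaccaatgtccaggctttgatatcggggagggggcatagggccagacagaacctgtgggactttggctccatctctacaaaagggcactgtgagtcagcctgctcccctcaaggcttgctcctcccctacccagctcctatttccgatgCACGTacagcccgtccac
Ankrd37, chr8:45999851-46000100, minus strand: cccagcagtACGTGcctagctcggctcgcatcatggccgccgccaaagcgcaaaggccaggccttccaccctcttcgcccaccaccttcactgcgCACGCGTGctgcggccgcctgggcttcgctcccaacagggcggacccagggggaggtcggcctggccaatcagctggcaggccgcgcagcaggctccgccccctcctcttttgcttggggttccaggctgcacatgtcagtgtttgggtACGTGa
P4ha2, chr11:54100674-54100923, plus strand: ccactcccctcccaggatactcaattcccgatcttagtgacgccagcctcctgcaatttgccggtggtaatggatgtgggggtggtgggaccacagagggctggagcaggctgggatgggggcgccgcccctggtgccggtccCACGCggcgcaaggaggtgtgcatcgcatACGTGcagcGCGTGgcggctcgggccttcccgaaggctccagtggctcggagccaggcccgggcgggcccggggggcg
Car9 held 1 match, 18 bases before the gene start. Ankrd37 held 4 matches, the nearest of them 6 bases before the start, and P4ha2 held 3. For all 3 genes the RefSeq start lies inside the wider gene coordinates of the count table, so that these windows lie partly or wholly within them.

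Of 3 glucose and lactate carriers, 1 was called higher in litter 1, against 3.82% of all autosomal genes, and none of the 3 overlapped between litters, which was so for 11.5% of all genes in that direction. Slc2a3, the high-affinity neuronal glucose transporter, was at 122, 124, 158 and 131 CPM against 32.5, 34.1, 57.6 and 14.0 CPM (log2 fold change 1.76, SE 0.324, adjusted p 0.0228). Slc16a3, which exports lactate, was at 167 to 195 CPM in litter 1 and at 19.4, 48.3, 44.4 and 1.49 CPM in litter 3. The wide spread of litter 3, from 1.49 CPM in the male +/+ culture upward, goes with an adjusted p of 0.097 for a log2 fold change of 2.45. Slc2a1 had a log2 fold change of 1.14 and an adjusted p of 0.0686.

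Of 12 glycolytic enzymes, 6 were called higher, against 3.82% of all autosomal genes, and the median log2 fold change was 0.78. Hk2, the inducible hexokinase, was at 144, 164, 160 and 145 CPM in litter 1 and at 59.9, 65.1, 69.0 and 51.7 CPM in litter 3 (log2 fold change 1.24, SE 0.117, adjusted p 0.00438). The call remained in each of the 8 fits that left out 1 library. Pfkp and Pfkfb3, which act at the phosphofructokinase step, had log2 fold changes of 1.57 and 1.29. Ldha, which makes lactate from pyruvate, was at 1864 to 2044 CPM against 915 to 1446 CPM, and Aldoa and Pgam1 were called with log2 fold changes of 0.89 and 0.78. The uncalled enzymes were Tpi1 at 0.79, Pfkl at 1.20, Eno1 at 0.49, Gapdh at 0.74, Pkm at 0.26 and Hk1. Several of these genes, among them Gapdh, Ldha, Aldoa and Pgam1, have processed copies elsewhere in the genome, so that their levels are uncertain.

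Of 3 mitochondrial members of the list, 2 were called higher, against 3.82% of all autosomal genes. Bnip3, a receptor for the removal of mitochondria, was at 242, 239, 250 and 243 CPM in litter 1 and at 25.8, 50.6, 53.01 and 10.2 CPM in litter 3 (log2 fold change 2.64, SE 0.449, adjusted p 0.0177). The litter 1 libraries were nearly equal, while the male +/+ culture of litter 3 was well below its littermates. Higd1a was called with a log2 fold change of 1.21. Pdk1, the kinase that shuts pyruvate out of mitochondria, was at 243 to 282 CPM against 11.0 to 132 CPM, with an adjusted p of 0.166 for a log2 fold change of 1.61. Within litter 3 the male +/+ culture was the lowest of the 4 for 27 of the 32 genes, and the male E147A/+ culture was the highest for 20. Genotype beside litter had a median log2 fold change of 0.42 over the list (27 of 32 positive), and its lowest adjusted p was 0.483. The interaction reached an unadjusted p under 0.05 for 2 of the 32 genes and an adjusted p of 0.475 at the lowest.

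**Figure D2:**
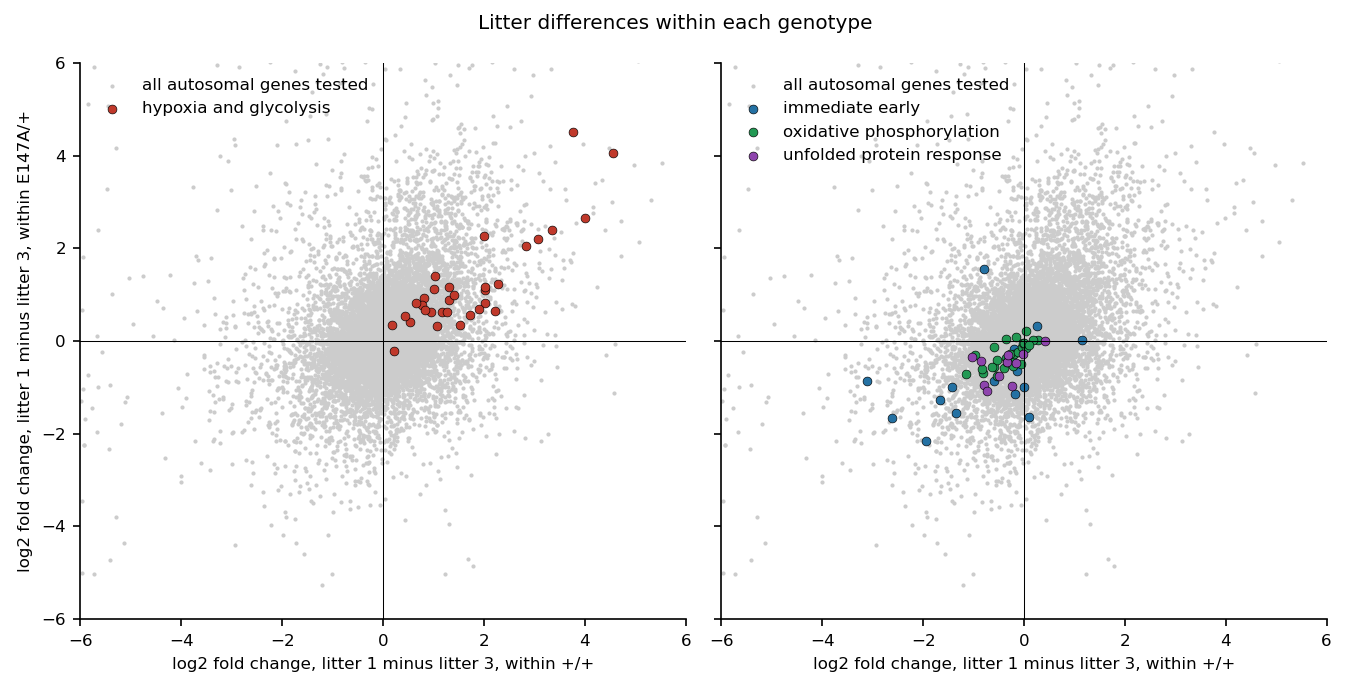
Log2 fold change of litter 1 minus litter 3 within +/+ (1 library against 3, horizontal axis) and within E147A/+ (3 libraries against 1, vertical axis); grey points are the autosomal genes tested, of which 283 lie outside the axes, and coloured points are members of the named lists. The hypoxia and glycolysis genes (left) lie in the upper right quadrant apart from Hk1, and most oxidative phosphorylation, unfolded protein response and immediate early genes (right) lie in the lower left.

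Among the 12 genes with the highest log2 fold change, 4 are members of the list (Car9, Ankrd37, P4ha2 and Vegfa), and others are known to respond to low oxygen. Ndufa4l2 (ENSMUSG00000040280, chromosome 10, 127514967 to 127517154), a HIF target that restrains mitochondrial respiration, was at 25.1, 22.4, 40.9 and 28.0 CPM in litter 1. In litter 3 it was at 0.830, 0.360, 0.0667 and 0.0338 CPM, under 3 counts in both male cultures. Its log2 fold change was the largest of the named genes, at 6.75 (SE 0.732, adjusted p 0.00558), and its size depends on those low counts. Loxl2, a collagen cross-linking enzyme, was at 18.8 to 29.7 CPM against 0.845 to 2.52 CPM (log2 fold change 3.63). A2m, a secreted protease inhibitor, was at 313, 408, 315 and 349 CPM in litter 1 and at 70.6, 51.6, 10.2 and 68.6 CPM in litter 3, where the E147A/+ culture was lowest (log2 fold change 3.73, SE 0.545, adjusted p 0.0114). Trpm2, a calcium-permeable channel gated by oxidative stress, had a log2 fold change of 3.54. The others were Col20a1, Sbsn and the predicted genes Gm20045 and Gm27010, with log2 fold changes of 3.62, 3.24, 3.29 and 3.08.

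A set of 20 genes was called on all 8 libraries and again in each of the 8 fits without 1 library, 19 of them higher in litter 1. It held Ankrd37, Hk2 and P4ha2 of the hypoxia list, Ndufa4l2, Loxl2, Trpm2 and A2m of the 12 highest, and Junb as the lower gene. Looked up in that set after the values were seen, Bnip3l, the close relative of Bnip3, was at 215 to 243 CPM in litter 1 and 69.7 to 99.3 CPM in litter 3 (log2 fold change 1.55, SE 0.123, adjusted p 0.00269). Igfbp5, which binds insulin-like growth factors, had a log2 fold change of 2.01 and Ppp1r3c, which directs glycogen synthesis, one of 2.00.

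Some immediate early genes were lower in litter 1: of 16 tested, 5 were called lower (31.2%, against 2.47% of all autosomal genes) and 0 higher, with a median log2 fold change of -0.71. Junb was at 11.2, 9.13, 8.09 and 4.38 CPM in litter 1 and at 32.1, 23.4, 29.9 and 25.6 CPM in litter 3 (log2 fold change -2.12, SE 0.267, adjusted p 0.00755). Egr1 was at 104, 90.2, 72.5 and 73.7 CPM against 207, 451, 393 and 187 CPM (log2 fold change -2.04, SE 0.312, adjusted p 0.0130). Neither gene overlapped between litters. Fos, Ier2 and Egr2 fell by 1.47, 1.44 and 1.21 on the log2 scale. Jun and Arc, the uncalled members with the highest levels, had log2 fold changes of -0.37 and -1.97 with overlapping libraries. Without the male E147A/+ library of litter 3, only Junb of the list was called, and the median was -0.41. Without litter 1 replicates 3 and 4 the called members numbered 3 and 2.

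**Figure D3:**
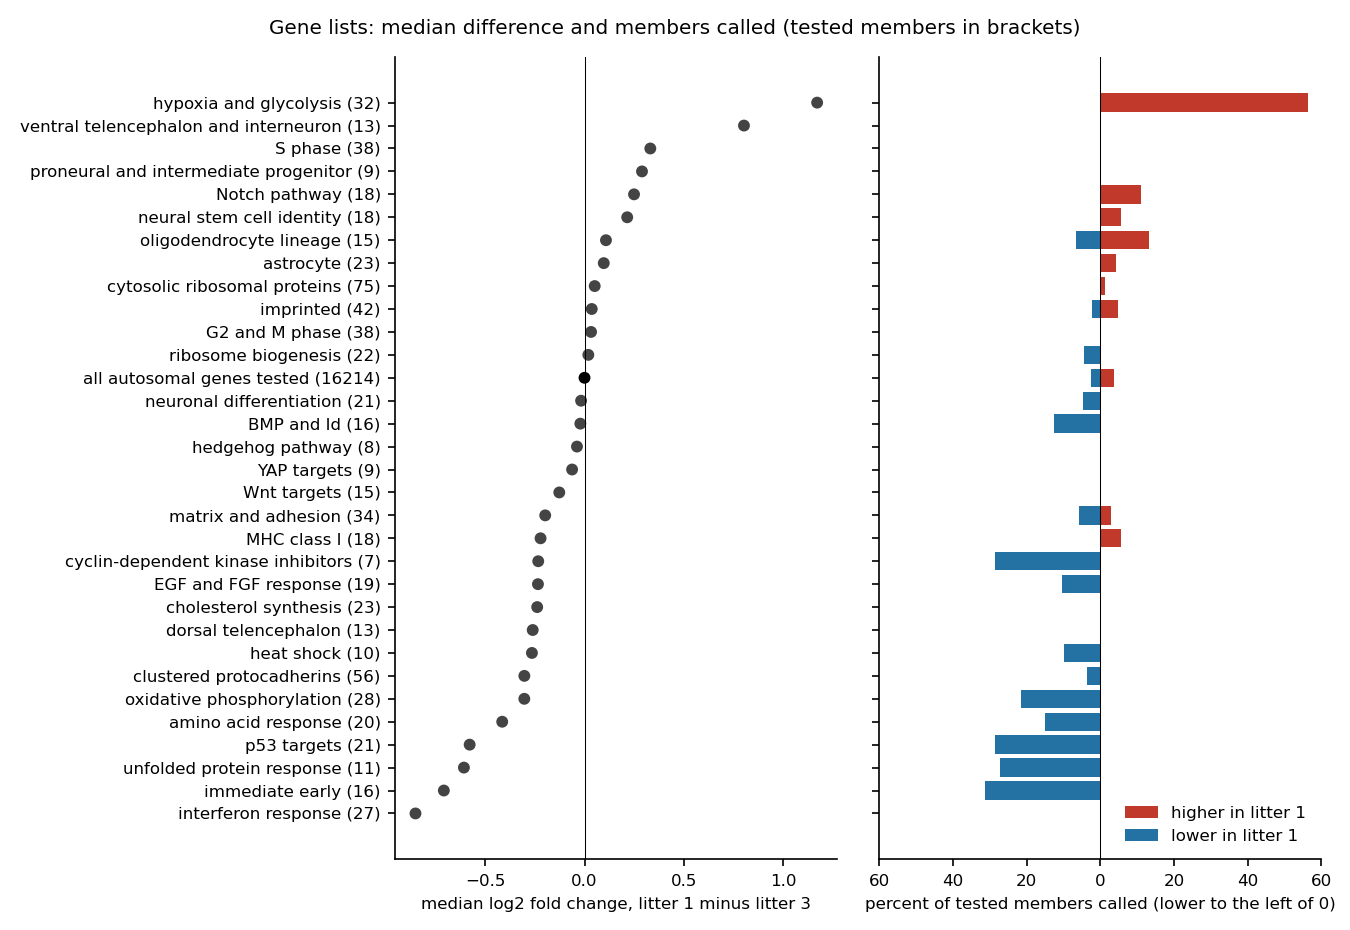
Median log2 fold change of litter 1 minus litter 3 for each gene list other than the markers of other cell types (left, points) and the percent of its tested members called higher (red bars, to the right of 0) or lower (blue bars, to the left of 0) in litter 1 (right); the number of tested members stands in brackets, and 16214 genes make up the row of all autosomal genes. Of the lists plotted, hypoxia and glycolysis has the highest median, 1.17, and the highest share of members called, 56.2%.

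Some genes of mitochondrial respiration were lower in litter 1, by a small amount. Of 28 nuclear genes of oxidative phosphorylation, 6 were called lower (21.4%, against 2.47% of all autosomal genes) and 0 higher, 14 did not overlap between litters in that direction (9.86% of all genes did so), and the median log2 fold change was -0.30. Sdhb, a subunit of succinate dehydrogenase, was at 125, 120, 113 and 120 CPM in litter 1 and at 182, 167, 200.5 and 177 CPM in litter 3 (log2 fold change -0.64, SE 0.100, adjusted p 0.0135). The differences of Cyc1, Uqcrq, Cox6a1 and Atp5b, subunits of the respiratory chain and ATP synthase, were -0.76, -0.94, -0.72 and -0.58 on the log2 scale. The summed level of the 28 genes was 6635 to 7089 CPM in litter 1 and 7973 to 9072 CPM in litter 3. The median was -0.29 within E147A/+ and -0.25 within +/+. Without the male E147A/+ library of litter 3, 0 members were called, and without litter 1 replicates 2, 3 and 4 the counts were 2, 1 and 1, while the median stayed between -0.33 and -0.26 over the 8 fits.

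Some chaperones of the endoplasmic reticulum were lower in litter 1. Of 11 genes of the unfolded protein response, 3 were called lower (27.3%, against 2.47% of all autosomal genes), 8 did not overlap in that direction (9.86% of all genes did so), and the median was -0.61. Hspa5, the chaperone BiP, was at 314, 330, 318 and 352 CPM in litter 1 and at 610, 475, 673 and 669 CPM in litter 3 (log2 fold change -0.90, SE 0.149, adjusted p 0.0160). Calr was at 237 to 275 CPM against 362 to 495 CPM, and Manf at 60.9 to 68.1 CPM against 78.8 to 107 CPM. The litters were fully separated for all 3. The called members numbered 0 without the male E147A/+ library of litter 3 and 0 without litter 1 replicate 3. The median was -0.35 without that litter 3 library and -0.34 in the +/+ libraries only. Cholesterol synthesis had 0 of 23 members called by edgeR (9 at an unadjusted p under 0.05, beside 25% of all genes, 4 by DESeq2, beside 15.4%, and 0 by limma-voom), a median of -0.24 and 5 members with all litter 1 libraries below litter 3, which was so for 9.86% of all genes.

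Some targets of p53 were lower in litter 1. Of 21 p53 targets, 6 were called lower (28.6%, against 2.47% of all autosomal genes) and 0 higher, with a median of -0.58. With limma-voom the count was 1, with sex as a covariate 1 and with DESeq2 11 (15.4% of all genes with DESeq2). The median was -0.31 with litter alone in the fit and -0.37 with the replicate block. Cdkn1a, the p21 inhibitor, was at 474, 485, 369 and 356 CPM in litter 1 and at 572, 469, 750 and 479 CPM in litter 3 (log2 fold change -0.63, SE 0.148, adjusted p 0.0428), and the libraries overlapped. Fas, a death receptor, was at 2.79 to 4.46 CPM against 5.25 to 10.1 CPM, and Phlda3 at 35.6 to 67.8 CPM against 79.1 to 112 CPM. Ccng1, Ei24 and Perp had log2 fold changes of -0.72, -0.60 and -1.98. Cdkn2b, the p15 inhibitor, was at 24.4, 18.8, 12.9 and 9.55 CPM against 53.4, 19.3, 61.9 and 51.8 CPM (log2 fold change -1.92, adjusted p 0.0305). It and Cdkn1a were the 2 of 7 inhibitors of cyclin-dependent kinases called lower (28.6%, against 2.47% of all autosomal genes), and 0 were called higher, with a median of -0.23. Cdkn1b, Cdkn1c and Cdkn2c were not called, with log2 fold changes of 0.39, 0.77 and -0.13. Of the 7, 2 were positive and 5 negative. DESeq2 called 3 of the 7 lower and 1 higher, limma-voom 0 and the fit with sex as a covariate 0. Without 1 library edgeR called 0 to 3 of them. The called p53 targets numbered 0 without the male E147A/+ library of litter 3, 3 without litter 3 replicate 1, and 2, 2, 1 and 1 without litter 1 replicates 1 to 4.

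Of 18 neural stem cell identity genes, edgeR called 1 (Hes1, or 5.56%, against 6.29% of all autosomal genes). At an unadjusted p under 0.05 these were 6 genes, and DESeq2 called 5, beside 25% and 15.4% of all autosomal genes. The median was 0.22, and the summed level was 6026 to 7386 CPM in litter 1 and 5892 to 7922 CPM in litter 3. For 38 S phase and 38 G2 and M phase genes, edgeR called 0, with medians of 0.33 and 0.03. At an unadjusted p under 0.05 these were 6 and 3 genes, and DESeq2 called 3 and 0, beside 25% and 15.4% of all autosomal genes. These medians differed by genotype: S phase genes had 0.74 within E147A/+ and -0.07 within +/+, and G2 and M phase genes had 0.46 and -0.37. Within E147A/+ litter 3 has 1 library, so only medians are given there. Without the male +/+ library of litter 1, 9 S phase and 5 G2 and M phase genes were called higher, beside 412 of 16907 autosomal genes (2.44%). The medians were then 0.75 and 0.47. Without the male E147A/+ library of litter 3, 0 and 0 were called by edgeR and the medians turned to -0.08 and -0.38. In that fit 2 S phase and 16 G2 and M phase genes had an unadjusted p under 0.05, beside 2654 of 16898 autosomal genes. The summed S phase level was 4053 to 4702 CPM in litter 1 and ranged more widely in litter 3, from 2655 CPM in the male E147A/+ culture to 5547 CPM. Genes of the amino acid response behaved alike, with 3 of 20 called lower (15%, against 2.47% of all autosomal genes) and medians of -0.86 within E147A/+ and 0.01 within +/+. The called members numbered 0 without litter 1 replicate 1, 2 or 3 or the male E147A/+ library of litter 3, and 1 without litter 3 replicate 1. For these lists the male E147A/+ culture of litter 3 and the litter cannot be told apart within E147A/+, since it is the only such culture there. Phgdh, the first enzyme of serine synthesis, was separate between litters, at 259 to 292 CPM against 342 to 489 CPM (log2 fold change -0.71).

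Single genes of the signalling pathways that hold stem cells in culture differed. Hes1, the Notch effector that represses neuronal genes, was at 55.9, 50.7, 54.3 and 51.4 CPM in litter 1 and at 29.0, 25.3, 22.7 and 23.1 CPM in litter 3 (log2 fold change 1.12, SE 0.136, adjusted p 0.00702). It and Rfng (log2 fold change 0.74) were the 2 of 18 Notch pathway genes called (11.1%, against 6.29% of all autosomal genes in either direction). Id1 and Id3, targets of BMP signalling, were lower in litter 1: Id3 was at 92.8, 92.8, 62.1 and 58.5 CPM against 200.5, 173, 139 and 163 CPM. Their log2 fold changes were -1.34 and -1.18, and the other 14 of 16 BMP and Id genes were not called (12.5% called). Dusp6, the phosphatase induced by ERK signalling, was at 153 to 190 CPM against 291 to 485 CPM (log2 fold change -1.02, SE 0.207, adjusted p 0.0298). Spry4 was the other called gene among 19 of the EGF and FGF response (10.5% called), at -0.47 on the log2 scale. In the 8 fits without 1 library, Hes1 was called in 7, Id3 in 5, Rfng, Id1, Dusp6 and Lif in 3 each and Spry4 in 2. Lif, a cytokine that acts on neural stem cells, was at 0.772 to 2.18 CPM against 2.60 to 6.94 CPM (log2 fold change -2.07).

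Lineage markers differed at few genes, beside 6.29% of all autosomal genes called in either direction. Of 23 astrocyte genes 1 was called (4.35%; Ntsr2, log2 fold change 2.10), of 21 neuronal genes 1 (4.76%; Stmn3, -1.10), and of 15 oligodendrocyte lineage genes 3 (20%; Bcan 0.68, Sox8 0.82 and Lhfpl3 -2.10). Of the oligodendrocyte lineage genes, 0 were called without any one of the 4 litter 1 libraries, 0 without the male E147A/+ library of litter 3 and 0 by limma-voom. Dorsal and ventral telencephalon lists of 13 genes each, and the proneural, hedgehog, Wnt and YAP lists, had 0 members called by edgeR. At an unadjusted p under 0.05 they held 3, 3, 2, 0, 1 and 2 genes, and DESeq2 called 3, 0, 0, 0, 1 and 2, beside 25% and 15.4% of all autosomal genes. Medians turned with genotype for the dorsal list, -0.70 within E147A/+ and 0.32 within +/+, and for the neuronal list, -0.54 and 0.44. The ventral list had a median of 0.80 (0.63 within E147A/+ and 1.51 within +/+). Its sums were 171 to 209 CPM in litter 1 and 104 to 163 CPM in litter 3. Of its 13 genes, 2 had at least 10 counts in every library, and the median of those was 0.04. The interferon response list also had 0 of 27 called (4 unadjusted, 3 by DESeq2, beside 25% and 15.4% of all autosomal genes). Its median was -0.85, with -0.10 within E147A/+ and -1.06 within +/+.

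Markers of other cell types that a cortical dissection can carry summed to at most 33.6 CPM per list in any library. In bulk RNA, fewer cells of a type and less RNA per cell cannot be told apart. Of 9 tested fibroblast and meningeal markers, 3 were called lower in litter 1 (Col3a1, Pdgfrb and Col1a2; 33.3%, against 2.47% of all autosomal genes), and the summed level of the 10 was 6.50 to 13.7 CPM in litter 1 and 13.8 to 33.6 CPM in litter 3. Col3a1, a fibrillar collagen, was at 1.23, 1.26, 0.973 and 0.518 CPM against 5.27, 4.15, 8.71 and 15.8 CPM (log2 fold change -3.38, SE 0.562, adjusted p 0.0163), the lowest of the 12 lowest genes. In the 8 fits without 1 library Col3a1 was called in 5, and Pdgfrb and Col1a2 in 0. Col3a1 was not called without litter 1 replicate 3, litter 1 replicate 4 or the male E147A/+ library of litter 3. Endothelial markers summed to 5.74 to 8.43 CPM in litter 1 and 7.67 to 8.57 CPM in litter 3, with 0 of 10 called by edgeR (6 unadjusted, 3 by DESeq2, beside 25% and 15.4% of all genes). Their median log2 fold change was -2.06, with 8 of 10 negative. Of the 10, 1 had at least 10 counts in every library, and Tie1 had a count of 0 in all 4 litter 1 libraries. Ependymal markers summed to 3.15 to 5.86 CPM against 5.27 to 27.4 CPM and microglial ones to 1.51 to 2.99 CPM against 1.65 to 8.94 CPM. Of 7 erythroid markers 4 had a count of 0 in all 8 libraries, and the other 3 summed to 0.0927 to 0.369 CPM in litter 1 and 0.0639 to 0.734 CPM in litter 3. Choroid plexus markers summed to 0.242 to 10.3 CPM in litter 1 and 0.101 to 1.24 CPM in litter 3, and the highest sum came from Otx2 at 10.2 CPM in the female E147A/+ library of litter 1. The part of these markers in the genes that differ between litters was not tested. Among the other lowest genes, Tenm4, Pcsk6, Dysf and Synpo had log2 fold changes of -2.86, -2.60, -2.89 and -2.15. Their mean levels were 0.963 to 3.12 CPM in litter 1 and 5.76 to 15.97 CPM in litter 3. The log2 fold changes of 1700007K13Rik, Clba1 and Mab21l1 were -2.33, -2.17 and -2.08.

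The genotype comparison was the smaller of the pair. With litter fitted, E147A/+ and +/+ differed at 13 autosomal genes by edgeR (0.0802%, adjusted p of at most 0.05, with 9.82% at an unadjusted p under 0.05) and at 180 by DESeq2, and 0 genes were called for both litter and genotype. Smchd1 itself, in which E147A is a missense change, had a litter log2 fold change of 0.12 and was not called. Each chromosome contributed called litter genes, from 3.95% of tested genes on chromosome 14 to 8.21% on chromosome 17.

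**Figure D4:**
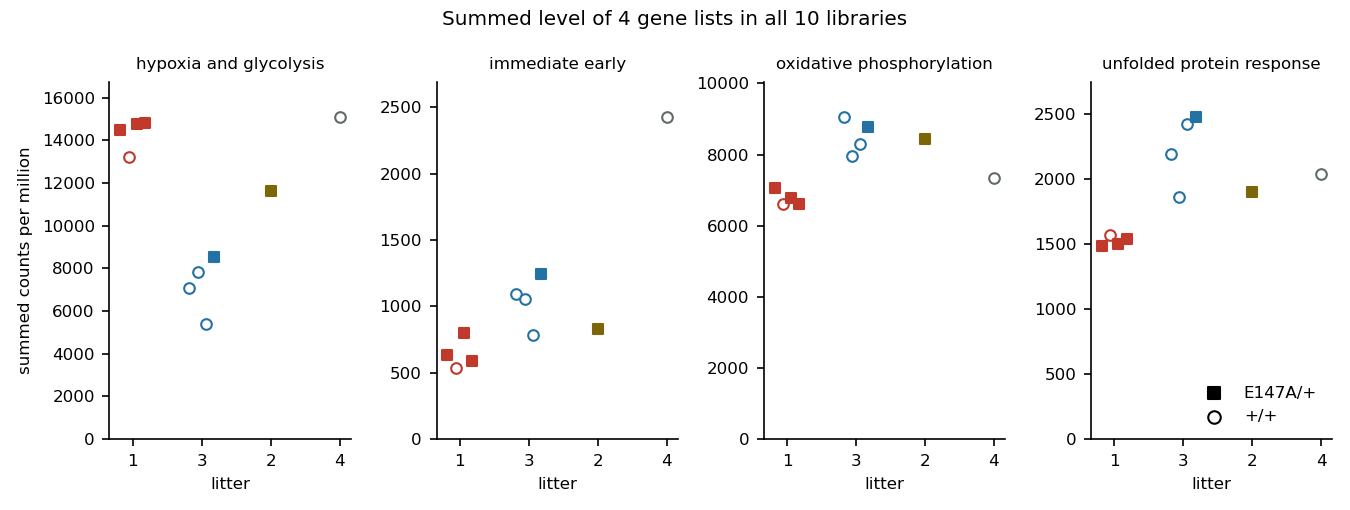
Summed CPM (vertical axis from 0) of 4 gene lists in all 10 libraries, scaled together, by litter (horizontal axis); filled squares are E147A/+ and open circles +/+, and litters 2 and 4 have 1 library each. The hypoxia and glycolysis sum is 13212 to 14807 in litter 1 and 5376 to 8526 in litter 3, and the libraries of litters 2 and 4, at 11618 and 15075, lie above all of litter 3.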

How the data were processed

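Polyadenylated RNA of 10 cultures was sequenced as paired-end reads from a stranded kit, per the labels' protocols. The authors deposited raw read counts per gene, made with Trim Galore 0.4.4, HISAT2 2.0.5 and featureCounts on GRCm38, per the submitters' processing notes, which also name R 3.5.1 and edgeR 3.24.0. Whether the counting used strand is not given in the sources used here. Columns of counts split by allele were not used here, and 0 columns of total counts were left without a sample. The 453 genes with no chromosome and the genes on X, Y and mitochondria entered library sizes and the fit but are not reported.

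The deposited counts of the 8 libraries were filtered with filterByExpr, scaled by TMM and fitted with edgeR 4.0.16 (R 4.3.3) with terms for genotype and litter, leaving 5 residual degrees of freedom. A gene was called at a Benjamini-Hochberg adjusted p of at most 0.05 over all genes tested, by the quasi-likelihood test. Log2 fold changes are litter 1 minus litter 3, and SE is that of the log2 fold change. CPM values are counts over the TMM-scaled library total. Groups did not overlap where the lowest library of one litter exceeded the highest of the other. In these libraries 3 counts equal 0.0692 to 0.145 CPM. Promoters come from RefSeq (GRCm38.p6).

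The litters, gene lists and tests were chosen with earlier results of these data known. Named were the 12 highest and 12 lowest called genes with non-overlapping libraries and a mean log2 CPM of at least 1. Also named were Smchd1 and up to 6 called and 2 uncalled genes of each list described in the text. All hypoxia list members were named. Sox2, Nes, Cdkn1c and Tie1 were named beyond this rule, and other such genes are said to be so. Alternatives were RLE size factors, DESeq2 1.42.0, limma-voom (limma 3.58.1) with quality weights, 3 other filters, litter alone, a sex term, a replicate block by title number, all 10 libraries, males only, either genotype only, and leaving out each library. The scripts were tested on simulated data.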

Additional observations from a re-analysis of the deposited data

Results flagged for a closer look

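Over both litters, 192 groups of 4 values, each from 1 litter, were examined. They covered most genes named in the text, on the log2 CPM scale, and library measures. A value was flagged where its library lay far from the other 3 of its litter by Dixon's 95% criterion. There were 16 such values, and chance gives about 1 in 20 groups.

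Of these, 6 belonged to the male E147A/+ library of litter 3. It was low for A2m, at 3.36 against 5.69 to 6.14 in its littermates, and for Ntsr2, at 0.79 against 1.58 to 1.70. It was high for Trpm2 (0.52 against -0.67 to -0.65), Tenm4 (5.07 against 3.27 to 3.48), Spry4 (9.32 against 8.68 to 8.77) and Pdgfrb (1.36 against 0.16 to 0.32).

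The male E147A/+ library of litter 1 numbered replicate 3 was high for the hypoxia list members Ero1l (8.46 against 7.83 to 7.93) and Ddit4 (8.93 against 8.65 to 8.70), and low for Ei24 (7.03 against 7.19 to 7.22) and Sox8 (7.20 against 7.61 to 7.63). The female E147A/+ library of litter 1 was high for Synpo (1.37 against 0.38 to 0.46) and Manf (6.09 against 5.93 to 5.94). The male +/+ library of litter 1 was low for Spry4 (8.30 against 8.78 to 8.83) and high for Sox2 (7.90 against 7.68 to 7.70). A female +/+ library of litter 3, replicate 2, was low for Cdkn2b (4.28 against 5.70 to 5.95) and had the highest total count of its litter, 39123104 against 30372514 to 31555904.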

How the results depend on the processing

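With other tools or terms the number of called genes was 2503 with DESeq2 (1017 of them among the 1020), 481 with limma-voom (471 shared), 1568 with litter alone and 526 with sex added. It was 3282 in E147A/+ libraries only, where the spread comes from litter 1 alone. It was 0 in males only (2881 at an unadjusted p under 0.05) and 0 in +/+ libraries only (1245). Without 1 library it was 22 to 1292. DESeq2 gave 70 genes for the interaction and 180 for genotype. The 72 called genes examined in this way kept their sign in every setting that gave them a value. They were called on the same 8 libraries that these settings reuse, which favours a kept sign. The named genes 1700007K13Rik, Clba1 and Mab21l1 were not examined. The hypoxia list had 0 to 28 members called higher and 0 lower in any setting, and its median was 0.84 to 1.36.

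Replicate numbers in the titles are shared across litters by embryos that differ in sex or genotype. Same-numbered libraries had residual correlations of 0.0325 to 0.362 over 4 pairs (median 0.242), against a median of -0.149 over 12 pairs with different numbers. The highest of those, 1, is the pair of libraries that are alone in their litter and genotype, whose residuals the fit makes equal. Of 6 libraries, 3 correlated best with their own number. The lowest same-numbered value was under 0.1, so the numbers were not taken to pair the libraries. With the replicate block, 0 genes were called (2248 at an unadjusted p under 0.05).

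Of the uncalled genes examined, the 3 genes Hk1, Smchd1 and Nes changed sign. Hk1 was at -0.0025 with RLE and -0.0025 with DESeq2, -0.13 with the replicate block, -0.22 in E147A/+ only, and -0.21 to 0.22 without 1 library. Smchd1 was at -0.17 with litter alone, -0.15 in +/+ only and -0.16 to 0.39 without 1 library. Nes was at 0.021 in E147A/+ only and -0.73 to 0.028 without 1 library. The causes were not tested. Each genotype has a single library in one of the litters, and this limits what can be said of litter within a genotype.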

Other observations

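Litters 2 and 4 gave 1 library each, a female E147A/+ and a male +/+ culture, and took no part in choosing the genes that differ between litters 1 and 3. Their hypoxia and glycolysis levels were closer to litter 1 than to litter 3. On the log2 CPM scale, 26 of the 32 genes in litter 2 and 28 in litter 4 lay nearer to the litter 1 mean. Above all 4 litter 3 libraries lay 24 and 30 of the 32. For the 619 genes called higher these counts were 536 and 344, but those genes were chosen in part for being low in litter 3. The shares over all autosomal genes were not taken, so the counts of nearer genes and of genes above litter 3 have no background. The summed level, scaled over all 10 libraries, was 11618 CPM in litter 2 and 15075 CPM in litter 4, against 5376 to 8526 CPM in litter 3. By this sum, litter 3 was the low one of the 4 for this list in these 10 libraries. Single genes went other ways: Car9 was at 1.62 CPM in litter 2, within the range of litter 3, and at 252 CPM in litter 4.

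Of the 619 genes called higher in litter 1, 76.9% lay nearer to the litter 1 mean in the litter 2 library and 42.2% in the litter 4 library. Of the 401 called lower, these shares were 53.1% and 44.6%. Both sets were chosen for a difference between the same 2 litters whose means serve as the yardstick. Shares for genes not so chosen were not taken, so no likeness to either litter is read from these values. The immediate early genes did not follow the hypoxia genes in litter 4, where Fos was at 395 CPM and Egr1 at 575 CPM, and the summed level was 2426 CPM against 785 to 1242 CPM in litter 3. In the litter 2 library the sum was 831 CPM. On the same scaling, the oxidative phosphorylation sum was 8437 CPM in litter 2, within the range of litter 3 (7950 to 9047 CPM), and 7348 CPM in litter 4, between the ranges of litters 1 and 3. With 1 library each, these values have no replicate error, and litter and genotype cannot be told apart in them.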
